A study of Mus musculus with 10 samples.

Results

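The genes of the ER translocon and of the signal sequence receptor were examined in mouse quadriceps, the large muscle of the front thigh. They are the 3 subunits of the Sec61 channel (*Sec61a1*, *Sec61b*, *Sec61g*), its partners *Sec62* and *Sec63*, and the 4 subunits of the translocon-associated protein complex, TRAP, known also as the signal sequence receptor (*Ssr1* to *Ssr4*). The 9 genes were taken by symbol from 24063 gene symbols in the tables. They were chosen by name with earlier results of these data known, so the choice was not blind to measured values. Between isoforms, the transcript was selected on its measured count, summed over all 10 libraries. For *Ssr4* the kept transcript had 11145 counts and the other 11002, the 3 *Sec61g* transcripts had 2948 counts each with the same count in every library, and the other genes had a single transcript.

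The tissue came from 5 mice that drank water with a supplement, 1C-MIM in the labels, and from 5 mice on plain facility water (Control). Both groups were wild-type (WT) C57BL mice, 17 to 20 months old, and supplementation lasted 1 to 3 months. The protocol has the tibialis anterior injured in these mice and the quadriceps left intact, in both groups alike. The labels used here state neither what 1C-MIM contains, nor the interval after injury, nor sex or cage. The libraries are numbered as separate animals, so n counts animals.

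As background, proteins destined for the ER, the cell surface or secretion carry a signal sequence. The signal recognition particle binds it as it leaves the ribosome and docks the ribosome on the ER membrane, where the chain enters the Sec61 channel. Sec61 alpha forms the pore, and the small beta and gamma subunits are each anchored by a single membrane span. Sec62 and Sec63 help chains that enter less readily, and Sec63 recruits the ER chaperone BiP through its J domain. TRAP sits beside Sec61 and helps some signal sequences to open the channel. In muscle this machinery makes receptors, ion channels and sarcoplasmic reticulum proteins, and the connective tissue and immune cells of the tissue use it for collagens, complement and antibodies.

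Promoter sequences are shown because many ER genes respond together to the unfolded protein response, whose factors XBP1 and ATF6 are known to bind elements holding CCACG or ACGTG. RefSeq windows of build GRCm38.p6, from 250 bases before to 50 after the annotated start, were at hand for 7 of the 9 members (*Sec61b*, *Sec61g*, *Sec62*, *Sec63*, *Ssr1*, *Ssr3* and *Ssr4*). Capitals mark every match to CCACG or ACGTG on either strand, and to the longer elements ERSE (CCAAT and CCACG with 9 bases between) and ERSE-II (ATTGG and CCACG with 1 base between), each of which contains CCACG. The 2 short motifs overlap wherever CCACGT occurs. The windows of *Sec61b* and *Ssr4*, which were lower in 1C-MIM, are set beside that of *Ssr1*, which did not pass the test, and that of *Hspa5*, the gene of BiP.
Sec61b (chr4:47474411-47474710, plus strand): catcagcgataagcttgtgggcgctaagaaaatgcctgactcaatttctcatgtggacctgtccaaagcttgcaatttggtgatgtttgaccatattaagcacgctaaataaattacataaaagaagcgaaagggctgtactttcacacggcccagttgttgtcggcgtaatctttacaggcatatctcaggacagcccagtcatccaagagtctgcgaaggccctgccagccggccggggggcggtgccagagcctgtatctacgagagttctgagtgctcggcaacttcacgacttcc
Ssr4 (chrX:73786773-73787072, plus strand): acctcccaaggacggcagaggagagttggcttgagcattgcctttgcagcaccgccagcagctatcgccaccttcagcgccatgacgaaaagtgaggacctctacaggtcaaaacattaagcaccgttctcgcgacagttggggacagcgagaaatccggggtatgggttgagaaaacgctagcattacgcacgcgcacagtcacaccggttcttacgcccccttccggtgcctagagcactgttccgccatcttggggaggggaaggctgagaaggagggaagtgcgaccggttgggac
Ssr1 (chr13:37994159-37994458, minus strand): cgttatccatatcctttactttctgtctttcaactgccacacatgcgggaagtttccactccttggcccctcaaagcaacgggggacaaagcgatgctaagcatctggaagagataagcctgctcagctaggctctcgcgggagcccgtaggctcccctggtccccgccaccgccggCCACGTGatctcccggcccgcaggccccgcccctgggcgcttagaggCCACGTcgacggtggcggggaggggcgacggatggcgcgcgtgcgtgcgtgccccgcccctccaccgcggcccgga
Hspa5 (chr2:34771840-34772139, plus strand): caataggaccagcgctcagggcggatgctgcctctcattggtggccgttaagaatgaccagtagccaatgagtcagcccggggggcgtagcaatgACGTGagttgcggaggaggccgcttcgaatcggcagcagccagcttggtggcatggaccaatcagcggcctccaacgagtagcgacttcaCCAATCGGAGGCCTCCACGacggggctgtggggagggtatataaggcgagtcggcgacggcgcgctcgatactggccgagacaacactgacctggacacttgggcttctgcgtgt
The windows of *Sec61b*, *Sec61g* and *Ssr4* held no match to any of the 4 motifs. *Ssr1* held CCACG at bases -73 to -69 and -26 to -22 from the start, with ACGTG overlapping both. In *Hspa5* the longer element ERSE was matched at bases -65 to -47, as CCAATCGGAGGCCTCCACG. CCACG was found in 3 of 7 member promoters (42.9%) and in 32.8% of the 32851 promoters of the table. ACGTG was found in 4 of 7 (57.1%), against 19.6% of all promoters, while ERSE was found in 0 of 7, against 0.119%, and ERSE-II in 0 of 7, against 0.0365%. Among 57 promoters of 51 other ER entry genes described below, 63.2% held CCACG, 38.6% ACGTG, 3.51% ERSE and 3.51% ERSE-II. The 4 members with ACGTG, *Sec62*, *Sec63*, *Ssr1* and *Ssr3*, were those that did not pass the test described below. The lower members *Sec61a1* and *Ssr2* had no window, so they are missing from this contrast. Of the lower members with a window, *Sec61g* and *Ssr4* lost their call when a trend with transcript length was removed, as described below. In that fit the log2 fold change was -0.15 for *Ssr1* and -0.09 for *Ssr4*, neither called. The members with ACGTG have transcripts of 2885 to 9306 bases, and *Sec61b*, *Sec61g* and *Ssr4* of 552 to 804 bases. Motif and transcript length therefore cannot be told apart here. With 7 promoters these shares are a description, and a match is not a binding site.

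Every library was muscle by its markers. Library totals ran from 28521254 to 31771296 counts with 1 transcript per symbol. The summed level of 5 myofibre markers was 156234.6 to 178295.4 CPM (counts over the library total, scaled between libraries by TMM composition factors) in 1C-MIM and 144067.0 to 164642.1 CPM in Control. Each of the 5 was detected, and 2 were higher in 1C-MIM and 0 lower. Markers of other cells differed between the groups: all 8 macrophage and monocyte markers were lower in 1C-MIM (summed level 117.9 to 161.3 CPM in 1C-MIM, 221.6 to 432.3 CPM in Control). Of 8 fibroblast markers, 6 were lower (694.5 to 1135.4 CPM in 1C-MIM, 1032.7 to 1526.3 CPM in Control), as were 2 of 5 tested of 7 B and plasma cell markers (8.17 to 13.7 CPM in 1C-MIM, 16.6 to 33.6 CPM in Control). Of 5 satellite cell and myoblast markers 3 were lower (27.4 to 32.5 CPM in 1C-MIM, 47.8 to 54.1 CPM in Control), and of 5 endothelial markers 2 were higher. Of 5 smooth muscle and pericyte markers 1 was higher, as was 1 of 7 tested of 8 Schwann cell and nerve markers. Of 4 adipocyte markers 1 was higher and 1 lower. The most abundant fibroblast marker, *Dcn*, averaged 439.6 ± 84.7 CPM in 1C-MIM and 418.3 ± 42.8 CPM in Control, with overlap, while *Col3a1* averaged 107.6 ± 17.6 CPM in 1C-MIM and 316.2 ± 78.8 CPM in Control. In each of these lists 0 markers were at 0 over all libraries. In bulk tissue, fewer cells of a type and less RNA per cell cannot be told apart, and the part these cells play in the members' values was not tested.

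Per unit of transcript length, *Ssr3*, *Ssr4* and *Ssr2* led the members by the mean in both groups and *Ssr1* came last. In TPM, the deposited unit that corrects for transcript length, *Ssr3* averaged 57.5 ± 5.48 TPM in 1C-MIM and 59.7 ± 6.85 TPM in Control (mean ± SD, n = 5 per group, as throughout). *Ssr4* followed with 40.9 ± 2.87 TPM in 1C-MIM and 49.8 ± 2.08 TPM in Control, and *Ssr2* with 24.6 ± 1.07 TPM in 1C-MIM and 32.7 ± 2.47 TPM in Control. *Sec61b* had 15.8 ± 0.759 TPM in 1C-MIM and 28.5 ± 1.81 TPM in Control. *Sec61g* and *Sec62* lay between 8.81 and 16.0 TPM in all libraries, and *Sec61a1*, *Sec63* and *Ssr1* between 4.47 and 9.23 TPM. Within Control, the members next to each other in this order whose ranges did not overlap were *Ssr4* and *Ssr2*, *Sec61b* and *Sec61g*, *Sec61g* and *Sec62* (lowest *Sec61g* 12.3 TPM), *Sec62* and *Sec61a1*, and *Sec61a1* and *Sec63*. Within 1C-MIM, *Sec61g* (8.81 to 12.6 TPM) overlapped *Sec62* (11.6 to 12.4 TPM), *Sec61a1* overlapped *Sec63*, and *Sec63* overlapped *Ssr1*. Lengths are those of the annotated transcripts, and *Ssr1*, with 9306 bases, has the longest of the 9.

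**Figure D1:**
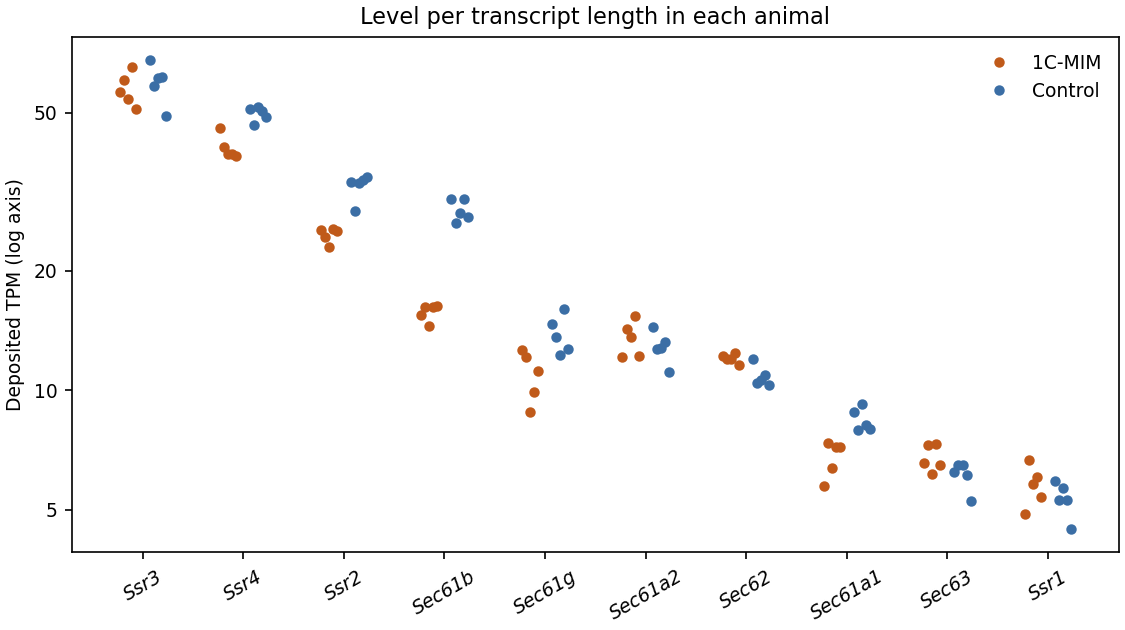
Deposited TPM (log axis) of each member and of the *Sec61a2* paralog, with 1 point per animal, 1C-MIM left of Control. *Ssr3* is highest and *Ssr1* lowest by the Control mean, and the groups are clearly apart for *Sec61b*, at 14.5 to 16.3 TPM in 1C-MIM and 26.4 to 30.4 TPM in Control.

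All 9 members passed the filter on low counts. In 1C-MIM, 5 of the 9 were lower, 0 higher and 4 did not pass the test (edgeR quasi-likelihood test, Benjamini-Hochberg adjusted p under 0.05 over all 13880 genes tested). Over all genes tested, 11.8% were lower, 9.78% higher and 21.6% either by the same rule. All 3 Sec61 subunits and the TRAP subunits *Ssr2* and *Ssr4* were lower, while *Sec62*, *Sec63*, *Ssr1* and *Ssr3* did not pass. At an unadjusted p under 0.05 edgeR had 1 member higher, *Sec63*, and DESeq2 and limma-voom called 0 higher and 5 lower. The median log2 fold change of the members was -0.30, against 0.001 over all genes tested. The groups did not overlap for 3 members, all lower in 1C-MIM (*Sec61a1*, *Sec61b* and *Ssr2*), a separation seen for 7.98% of all genes tested, against 6.6% for separation upwards, which 0 members showed.

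*Sec61b*, the small beta subunit, was the member with the largest change. It had 9.43, 8.28, 8.10, 8.54 and 9.29 CPM in 1C-MIM 1 to 5, against 16.8, 14.5, 14.9, 16.9 and 16.9 CPM in Control 1 to 5. Each 1C-MIM library lay well below each Control library, on a median of 256 counts in 1C-MIM and 491 in Control. Its log2 fold change was -0.87 (SE 0.08, edgeR adjusted p = 4e-05), a level that fell by 45.4%, and all 5 1C-MIM libraries were below the Control mean. *Sec61a1*, the pore subunit, had 19.1, 20.6, 19.6, 20.9 and 22.5 CPM in 1C-MIM, against 26.8, 24.0, 27.1, 25.0 and 27.2 CPM in Control. The highest 1C-MIM library lay below the lowest Control library, and the log2 fold change was -0.34 (SE 0.06, edgeR adjusted p = 0.00347). *Sec61g*, the gamma subunit that clamps the pore subunit, had 10.8, 8.69, 6.94, 7.37 and 8.96 CPM in 1C-MIM, against 11.5, 10.5, 9.27, 12.6 and 11.1 CPM in Control. The groups overlapped through 1C-MIM 1, which lay above Control 2 and Control 3. The log2 fold change of *Sec61g* was -0.36 (SE 0.12, edgeR adjusted p = 0.0446), and this call was lost when any single library other than 1C-MIM 1 or Control 3 was left out (adjusted p = 0.0533 to 0.12), and with the animal-number series as a block (0.0558).

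**Figure D2:**
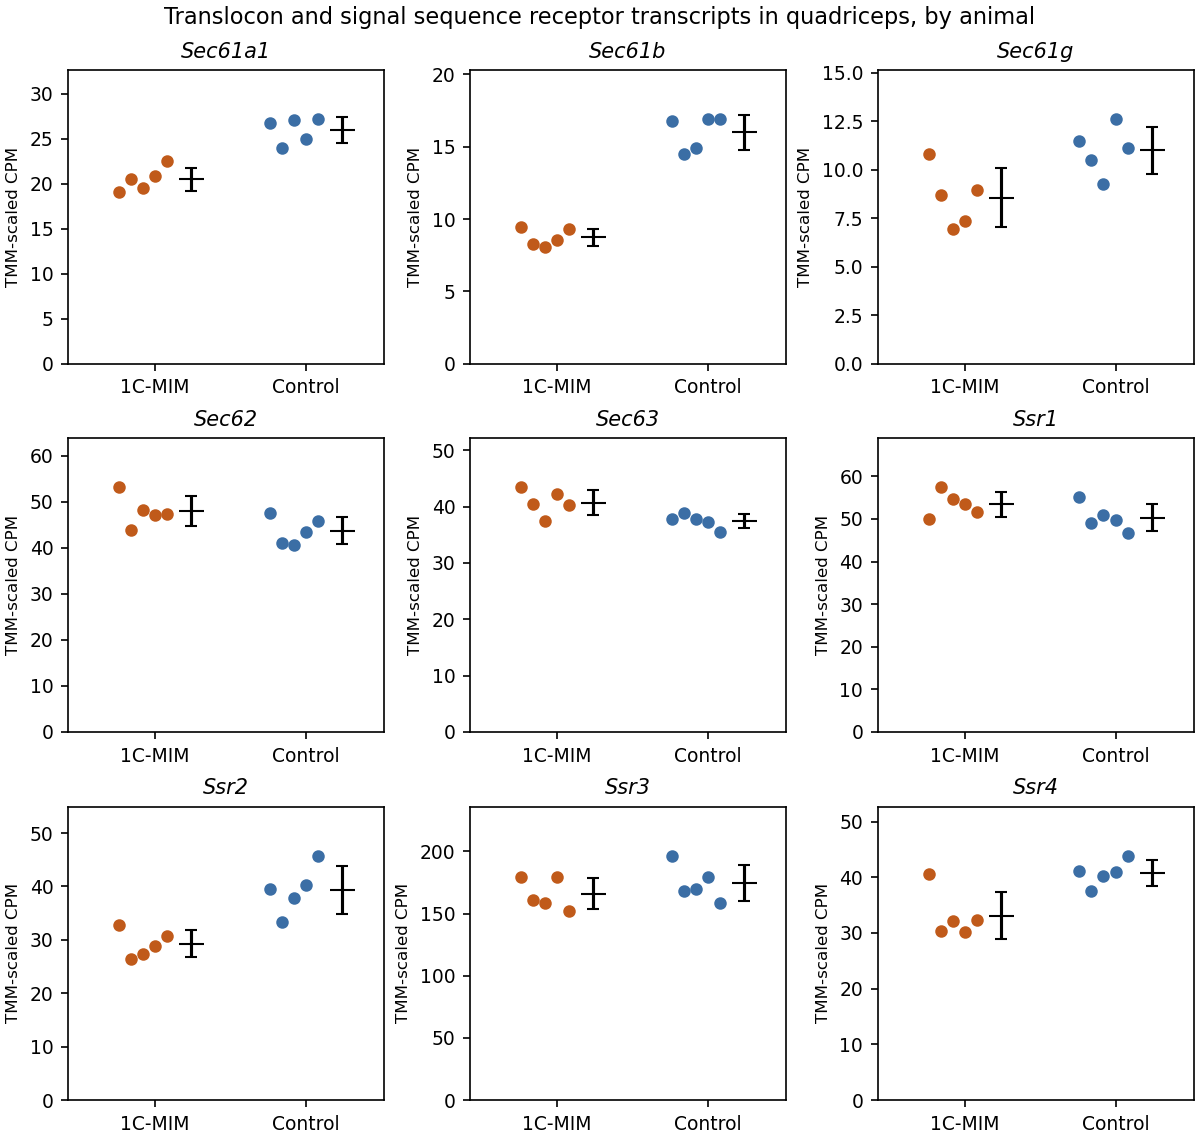
TMM-scaled CPM of the 9 members in each animal, 1C-MIM left of Control, with the mean and SD (n = 5) as a bar beside the points. *Sec61a1*, *Sec61b* and *Ssr2* show no overlap between the groups, and each axis starts at 0.

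*Sec62* and *Sec63*, the partners that work with BiP on slow-entering chains, did not pass the test. *Sec62* had 53.1, 43.9, 48.1, 47.2 and 47.4 CPM in 1C-MIM, against 47.6, 41.1, 40.6, 43.5 and 45.7 CPM in Control, with overlapping groups. Its log2 fold change was 0.13 (95% interval -0.01 to 0.27, edgeR adjusted p = 0.152). *Sec63* had 43.4, 40.5, 37.4, 42.2 and 40.2 CPM in 1C-MIM, against 37.7, 38.9, 37.7, 37.2 and 35.5 CPM in Control. Only 1C-MIM 3 lay within the Control range. The log2 fold change of *Sec63* was 0.12 (95% interval 0.00 to 0.24, edgeR adjusted p = 0.124). These intervals leave out a decrease of the size of the *Sec61a1* estimate.

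In TRAP, the beta subunit gene *Ssr2* had 32.8, 26.5, 27.4, 28.9 and 30.7 CPM in 1C-MIM, against 39.6, 33.4, 37.9, 40.3 and 45.8 CPM in Control. The groups did not overlap, though 1C-MIM 1 and Control 2 lay close, and the log2 fold change was -0.43 (SE 0.08, edgeR adjusted p = 0.00461). The delta subunit gene *Ssr4* had 40.5, 30.4, 32.1, 30.2 and 32.3 CPM in 1C-MIM, against 41.2, 37.5, 40.2, 41.0 and 43.9 CPM in Control. 1C-MIM 1 lay among the Control libraries and the other 1C-MIM libraries lay below all of them. The log2 fold change of *Ssr4* was -0.30 (SE 0.08, edgeR adjusted p = 0.0194), and its call was lost without 1C-MIM 3 or 1C-MIM 4 (adjusted p = 0.053 and 0.063). The gamma subunit gene *Ssr3* had 179.4, 161.2, 158.4, 179.7 and 151.9 CPM in 1C-MIM, against 196.7, 168.2, 170.1, 179.2 and 158.8 CPM in Control. Its groups overlapped over most of their range, with a log2 fold change of -0.07 (95% interval -0.22 to 0.08, edgeR adjusted p = 0.478). The alpha subunit gene *Ssr1* averaged 53.4 ± 2.87 CPM in 1C-MIM and 50.3 ± 3.14 CPM in Control, a log2 fold change of 0.09 (95% interval -0.04 to 0.22, edgeR adjusted p = 0.301).

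Of 6 ratios between members of a complex or pair, 1 stood apart between the groups. *Sec61b* over *Sec61a1*, per length, was 2.21 to 2.71 in 1C-MIM and 3.03 to 3.72 in Control, without overlap. *Sec61g* over *Sec61a1* averaged 1.63 ± 0.34 in 1C-MIM and 1.66 ± 0.225 in Control. In TRAP, *Ssr2* over *Ssr3* was 0.392 to 0.493 in 1C-MIM and 0.485 to 0.703 in Control, with 1C-MIM 5 above Control 1 and Control 2. The groups overlapped as well for *Ssr4* over *Ssr3* (mean 0.716 in 1C-MIM, 0.842 in Control), *Ssr1* over *Ssr3* (0.0863 to 0.11 in 1C-MIM, 0.0859 to 0.0926 in Control) and *Sec63* over *Sec62* (0.56 in 1C-MIM, 0.565 in Control). Against the mean of the 9 members in each library, *Sec61b* stood 0.11 ± 0.04 above it in 1C-MIM and 0.75 ± 0.05 above it in Control on the log2 TPM scale. *Sec62*, *Sec63* and *Ssr1* stood higher against that mean in every 1C-MIM library than in any Control library. They have the longest transcripts of the members (3966, 6032 and 9306 bases). TPM does not remove the trend of fold change with transcript length described below. Without that trend their log2 fold changes were 0.08, -0.01 and -0.15, none called, against -0.66 for *Sec61b* and -0.34 for *Sec61a1*. The ratios are descriptions of members already listed and were not tested.

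*Sec61a2*, the paralog of the pore gene, is not among the members but has a level per length above that of *Sec61a1* in this muscle. Per length it had 13.5 ± 1.39 TPM in 1C-MIM and 12.9 ± 1.19 TPM in Control (SD, n = 5), and its ratio to *Sec61a1* was above 1 in every library. Its log2 fold change was 0.05 (95% interval -0.09 to 0.18, edgeR adjusted p = 0.607). *Sec61a2* over *Sec61a1* was 1.71 to 2.13 in 1C-MIM and 1.39 to 1.64 in Control, without overlap. How reads matching both paralogs were assigned was not stated.

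Transcript length moved with the fold changes, and 4 of the 5 lower members have short transcripts. *Sec61b* (552 bases), *Sec61g* (779), *Ssr4* (804) and *Ssr2* (1183) were the members under 1500 bases, a limit chosen after their lengths were seen, and 4 of 4 were lower. Of the 5 longer members only *Sec61a1* (3039 bases) was lower. Among all tested genes under 1500 bases, 25.2% were lower (median log2 fold change -0.18), against 8.82% of the longer genes (median 0.04). With each library's length trend removed, *Sec61b* was at -0.66 (SE 0.07, edgeR adjusted p = 3.22e-05), *Sec61a1* at -0.34 (SE 0.06, 0.00226) and *Ssr2* at -0.24 (SE 0.06, 0.0108), all 3 still called. *Sec61g* was then at -0.15 (SE 0.10, edgeR adjusted p = 0.314) and *Ssr4* at -0.09 (SE 0.05, 0.256), and neither call held. *Ssr1* changed sign to -0.15 (SE 0.06, edgeR adjusted p = 0.109) and *Sec63* to -0.01 (SE 0.07, 0.914). In that fit 7.91% of all genes were lower, against 3 of the 9 members. What gave rise to the length trend was not tested.

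**Figure D3:**
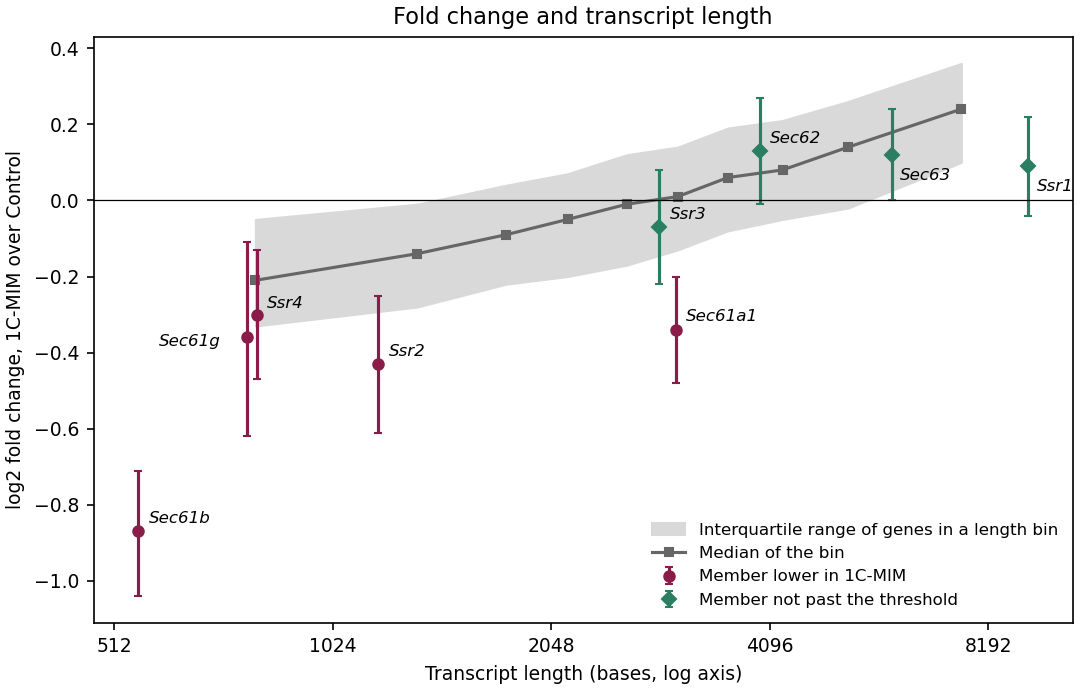
Log2 fold change of the members (points, with 95% intervals) against transcript length (log axis), over the median and interquartile range of all tested genes in 10 bins of length. The bin median runs from -0.21 for the shortest genes to 0.24 for the longest, and *Sec61a1*, *Ssr2*, *Sec61b*, *Sec61g* and *Ssr1* lie below the interquartile range of their bins. The band is drawn between bin medians, so *Sec61b*, *Sec61g* and *Ssr1* lie beside it.

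**Figure D4:**
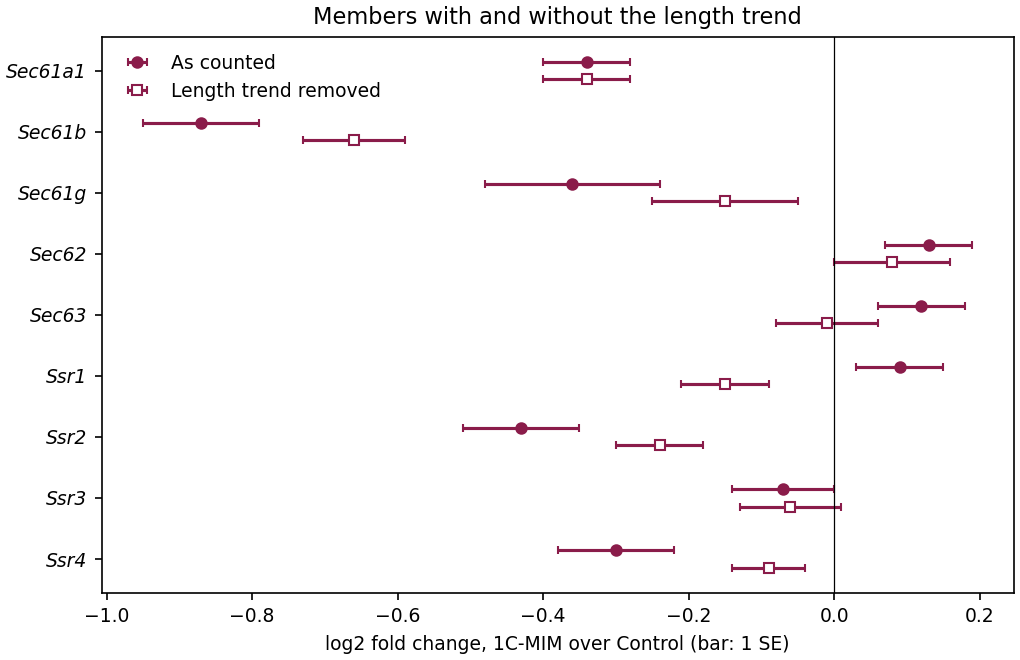
Log2 fold change of each member as counted (filled) and with the length trend of each library removed (open), with bars of 1 SE. *Sec61a1* stays at -0.34, *Sec61b* moves to -0.66, and *Sec61g* and *Ssr4* move closer to 0.

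By the animal numbers in the deposited names, libraries 1 to 3 of each group belong to one number series (the first series) and libraries 4 and 5 to another (the second series); what the numbers stand for was not stated. All 9 members kept the sign of their log2 fold change within each series. *Sec61b* was called in both, at -0.84 (SE 0.12, edgeR adjusted p = 0.0305) in the first series and -0.92 (SE 0.13, edgeR adjusted p = 0.00927) in the second. *Sec61a1* was at -0.39 (edgeR adjusted p = 0.09) in the first series and -0.26 (0.20) in the second. *Ssr2* was called in the second series alone (-0.53, SE 0.11, edgeR adjusted p = 0.0457), at -0.35 in the first (adjusted p = 0.149), and the difference between the series was not tested. Without Control 1 and Control 5, which earlier results of these data set apart, *Sec61a1*, *Sec61b* and *Ssr2* were called, at -0.30, -0.82 and -0.35. Within Control, the library with the fewest macrophage transcripts, Control 2 (221.6 CPM), had 14.5 CPM of *Sec61b*, and the one with the most, Control 3 (432.3 CPM), had 14.9 CPM. The other 3 Controls had 16.8 to 16.9 CPM of *Sec61b*. In the same 2 libraries, Control 2 and Control 3, *Sec61a1* had 24.0 and 27.1 CPM and *Ssr2* 33.4 and 37.9 CPM. *Ssr4* had 37.5 and 40.2 CPM there, and *Sec61g* 10.5 and 9.27 CPM. How the members relate to macrophage transcripts was not tested.

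Around the translocon, 70 of 71 further genes of ER entry were tested. Of these, 19 were lower (27.1%), 3 higher (4.29%) and 48 did not pass, with a median log2 fold change of -0.13. Over all genes tested, 11.8% were lower and 9.78% higher, and 25.2% were lower among those under 1500 bases. Lower counts were 11 with the length trend removed, a fit in which 7.91% of all genes were lower. They were 12 without 1C-MIM 3 and 12 without 1C-MIM 4. With library totals as scaling they were 38, and then 1 gene was higher. The lists were drawn up by function with earlier results of these data known.

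Of the translocon-associated and accessory genes, which include BiP and its cofactors, 5 of 9 tested were lower and 0 higher (median -0.31). With the length trend removed 4 were lower, with a median of -0.16. *Hspa5*, the BiP chaperone that Sec63 recruits, had 221.6, 227.1, 221.6, 231.5 and 236.0 CPM in 1C-MIM, against 351.5, 281.6, 280.1, 291.9 and 333.1 CPM in Control. The groups were apart and the log2 fold change was -0.43 (SE 0.07, edgeR adjusted p = 0.00156). *Hyou1*, a nucleotide exchange factor of BiP, was at -0.32 (SE 0.06, edgeR adjusted p = 0.00464), *Dnajb11*, a J-domain co-chaperone, at -0.31, and *Tram1*, a membrane protein next to Sec61, at -0.42 (SE 0.09, 0.00551). *Tmem208*, whose human counterpart belongs to the SND targeting route, was at -0.37 (SE 0.07, edgeR adjusted p = 0.00382), and at -0.16 (0.109) with the length trend removed.

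Enzymes that act on the entering chain were lower in part. In the list of signal peptidase subunits and signal peptide peptidase (*H13*), 3 of 6 were lower and 0 higher (median -0.24), and 1 was lower with the length trend removed (median -0.15). *Spcs3* averaged 30.9 ± 2.05 CPM in 1C-MIM and 40.7 ± 2.86 CPM in Control (log2 fold change -0.40, SE 0.07, edgeR adjusted p = 0.00197). *Sec11c* and *Sec11a*, the catalytic subunits, were at -0.40 (edgeR adjusted p = 0.0095) and -0.28 (0.0378), and neither call held with the length trend removed (0.0613 and 0.455). Of 12 oligosaccharyltransferase genes, which attach N-glycans next to the channel, 7 were lower and 0 higher (median -0.23), and without the length trend 4 were lower (median -0.13). *Ostc*, which links that enzyme to Sec61, averaged 11.9 ± 0.871 CPM in 1C-MIM and 18.4 ± 2.69 CPM in Control (log2 fold change -0.63, SE 0.10, edgeR adjusted p = 0.00133; -0.43 with the length trend removed, adjusted p = 0.00393). The non-catalytic subunit *Ddost* was at -0.25 (SE 0.05, edgeR adjusted p = 0.00573), *Rpn1* at -0.19 (SE 0.05, 0.0149) and *Tmem258* at -0.34 (SE 0.08, 0.0105). With the length trend removed *Ddost* and *Rpn1* were still called and *Tmem258* was not (-0.14, edgeR adjusted p = 0.109). The catalytic subunits *Stt3a* and *Stt3b* did not pass, at -0.10 and -0.05.

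Targeting and the other insertion routes had at most 1 call in each direction per list, in lists of 6 to 11 genes. The shares over all genes tested were 11.8% lower and 9.78% higher, and lists this short cannot show whether their calls were fewer. Of 10 genes of the signal recognition particle and its receptor, 1 was lower, the receptor subunit *Srprb* (-0.20, SE 0.06, edgeR adjusted p = 0.022), and 1 higher, *Srp72* (0.22, SE 0.07, edgeR adjusted p = 0.0465), with a median of 0.01. *Srp9*, a subunit of the particle, did not pass, at -0.22 (SE 0.08, edgeR adjusted p = 0.0672). *Srp54b* and *Srp54c* had the same mean and SD in both groups and cannot be told apart. Of 11 genes of the ER membrane protein complex, 0 were called in either direction by edgeR at an adjusted p under 0.05 (median -0.10), while 2 were lower at an unadjusted p under 0.05 (*Emc6* and *Emc10*), DESeq2 called 1 lower (*Emc10*) and limma-voom 0. The log2 fold changes were -0.19 for *Emc6*, -0.21 for *Emc9* and -0.15 for *Emc10* (edgeR adjusted p = 0.102, 0.138 and 0.0606). Of 7 genes for tail-anchored proteins, which hand such proteins to the membrane, 1 was lower (*Get4*, -0.15) and 1 higher (*Bag6*, 0.20, SE 0.06, edgeR adjusted p = 0.0224). With the length trend removed neither call held (*Get4* -0.07, edgeR adjusted p = 0.33, and *Bag6* 0.16, 0.082). *Asna1*, the targeting ATPase, did not pass, at -0.13 (SE 0.05, edgeR adjusted p = 0.0832). In the multipass translocon, *Nomo1* averaged 156.5 ± 7.21 CPM in 1C-MIM and 119.8 ± 7.82 CPM in Control, without overlap (log2 fold change 0.39, SE 0.06, edgeR adjusted p = 0.00122). *Wdr83os*, a chaperone for multipass proteins, was lower (-0.25, SE 0.08, edgeR adjusted p = 0.0358), a call lost with the length trend removed (-0.03, 0.76). The other 4 of its 6 genes did not pass, among them *Ccdc47* at 0.13 (SE 0.05, edgeR adjusted p = 0.084). Of 9 ER stress factors, *Xbp1*, a transcription factor of the unfolded protein response, was lower, at 73.3 ± 2.19 CPM in 1C-MIM and 95.9 ± 1.94 CPM in Control (log2 fold change -0.39, SE 0.05, edgeR adjusted p = 0.000271). *Atf6* was at 0.04 (95% interval -0.14 to 0.22), *Atf6b* at -0.16 (SE 0.07, edgeR adjusted p = 0.0963, groups not overlapping), *Ddit3* at -0.25 (edgeR adjusted p = 0.0673) and *Atf4* at -0.14 (0.23).

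**Figure D5:**
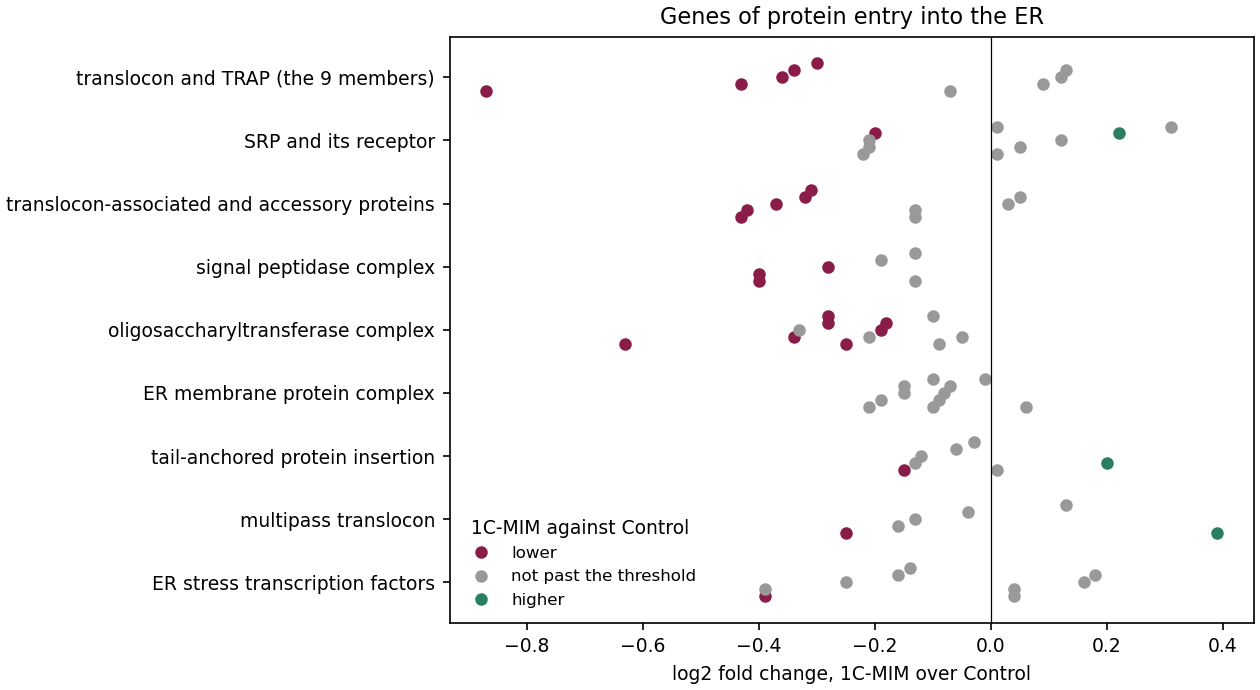
Log2 fold change (1C-MIM over Control) of the 9 members and of 70 further genes of ER entry, 1 point per gene, by list. Among the further genes, most lower ones lie in the translocon-associated and accessory, signal peptidase and oligosaccharyltransferase lists (5, 3 and 7). Of the 11 ER membrane protein complex genes 0 were called, and *Nomo1* is the highest called point at 0.39.

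The mean profile of the 9 members over the 10 libraries, in log2 CPM centred per gene, was -0.19 to 0.01 in 1C-MIM and 0.03 to 0.19 in Control. Among 6017 other genes with a mean log2 CPM of at least 4, the 5 with the smallest root mean square difference from this profile over the 10 libraries were *Smim7* (0.037 log2 units), *Prmt1* (0.041), *Tpd52l2* (0.041), *Rala* (0.041) and *Arpc2* (0.042). Their log2 fold changes were -0.27, -0.22, -0.21, -0.22 and -0.20. This likeness holds the group difference and is a description only.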

How the data were processed

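Total RNA of 10 quadriceps samples was sequenced, 1 library per animal; extraction and library preparation were done by the company Active Motif, per the labels' protocols. The deposited count values are whole-number reads per RefSeq transcript (33984 in each table) without normalization, and a read shared by isoforms is counted for each. The deposited FPKM values gave transcript lengths, and TPM values as deposited, which correct for length at a fixed library total, gave levels between genes. The submitters' processing notes name STAR, Salmon 1.5.2, featureCounts and build GRCm39, among others, with no role. The strand setting of the counting was not stated, and *Sec61a1*, *Sec62*, *Sec63* and *Ssr2* share exon bases with a gene annotated on the opposite strand (GENCODE M21).

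Per symbol the transcript with most counts over the 10 libraries was kept (24063 symbols), and filterByExpr left 13880 genes; library totals were 28521254 to 31771296 counts. Counts were TMM-scaled and the groups compared with edgeR 4.0.16 (R 4.3.3), by the robust quasi-likelihood F test with Benjamini-Hochberg adjustment over all tested genes. A gene was called at an adjusted p under 0.05. SE is the log2 fold change over the square root of F, and 95% intervals use the test's degrees of freedom. Log2 CPM used a prior count of 2.

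The members, lists and alternatives were chosen with earlier results of these data known. Named by rule were all members, *Hspa5*, *Xbp1*, *Atf6* and *Sec61a2*, the 3 genes with the smallest p in each pathway list and the 5 genes nearest to the members' mean profile; further names were added after their values were seen. The rule also held the 2 most abundant markers of each cell type list. Of these, the fibroblast markers are given with the cell types, and *Igj*, *Pecam1* and *Myod1* among the flagged values only. Alternatives were other scalings, filters and tests (DESeq2 1.42.0, limma-voom 3.58.1), blocks, left-out libraries, other transcript choices and removal of the length trend by a natural spline with 3 inner knots.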

Additional observations from a re-analysis of the deposited data

Results flagged for a closer look

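In 58 genes, each group of 5 libraries was searched for a highest or lowest value far from the other 4, and 10 such values were found among 116 groups, where chance gives about 1 in 20. Among the members, *Ssr4* had 40.5 CPM in 1C-MIM 1, while the next 1C-MIM library had 32.3 CPM. *Hyou1* had 28.7 CPM in 1C-MIM 1, the lowest of its group, and 44.5 CPM in Control 1, the highest of its group. *Tpd52l2* had 48.2 CPM in 1C-MIM 1 and *Tmem208* 15.0 CPM in 1C-MIM 5, both the highest of the group. *Xbp1* had 92.5 CPM in Control 3, the lowest Control, within a group that spans up to 97.4 CPM. *Wdr83os* had 37.9 CPM in Control 5, the highest Control. Among cell type markers, *Igj* had 20.5 CPM in Control 2, the highest Control. *Pecam1* had 48.4 CPM and *Myod1* 29.9 CPM in Control 1, both the lowest Control.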

How the results depend on the processing

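Counts of called members were 5 lower and 0 higher, and 0 members were higher under all 27 alternatives. *Sec61b* was called lower under all 26 alternatives computed for it (log2 fold change -0.95 to -0.66), and *Sec61a1* under all but the fits within each number series. With the length trend removed, 3 members and 11 pathway genes were lower, and *Ssr1* (-0.15) and *Sec63* (-0.014) changed sign, neither called. With library totals, 606 genes were higher and 2896 lower, and 1 pathway gene was higher and 38 lower, with the median of all genes at -0.074. Within the first number series 31 genes were higher and 64 lower, 1 member was lower and 0 pathway genes were called. Within the second these were 127, 269, 2 and 0. These fits hold 3 and 2 animals per group, and at an unadjusted p under 0.05 edgeR had 14 and 21 pathway genes lower and 2 and 1 higher. Without Control 1 and Control 5 together, 832 genes were higher and 976 lower, 3 members were lower, and 1 pathway gene was higher and 11 lower. An adjusted p under 0.1 gave 2114 higher genes. Leaving out each library gave 739 to 1558 higher and 941 to 1885 lower genes, 3 to 5 lower members, and 1 to 3 higher and 12 to 27 lower pathway genes. Without 1C-MIM 3 or without 1C-MIM 4, 3 members and 12 pathway genes were lower.

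With a replicate block 1932 genes were higher and 1965 lower, with 5 lower members, and 3 pathway genes higher and 23 lower. Same-numbered samples deviated together with correlations of -0.075 to 0.387, and 2 of 5 1C-MIM samples correlated best with their own number. With 5 pairs, this check cannot decide whether the numbers pair the animals. The fits without libraries have fewer animals, and the cause of the other shifts was not tested.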
